A study of Mus musculus with 30 samples.

Results

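The livers of female mice whose dams had drunk water with BPSIP were compared with those of female mice whose dams had drunk water with BPS. The comparison rests on 3 BPSIP and 3 BPS libraries of the 30 libraries in the series, and the members were chosen by their labels, sex and exposure, with no use of expression values. BPS, bisphenol S, is a pair of phenols joined by a sulfone, and BPSIP is the same molecule with 1 of its hydroxyl groups carrying an isopropyl ether. Both are developers of thermal paper. Of 13874 genes tested, 5455 differed between the compounds: in BPSIP livers cholesterol synthesis, interferon gamma response and antigen presentation genes were higher, and fatty acid oxidation, glucose output and insulin axis genes were lower.

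All mice were ICR, an outbred stock. Dams drank water with 10 ng/mL of the compound in 0.001% ethanol, set to a dose of 5 µg/kg/day, for about 40 days from pregnancy to weaning, and control dams drank water with ethanol alone. There were 8 dams in a group, and offspring taken at random from litters of different dams were killed at 10 weeks. A library was made from total RNA of 1 liver. The offspring themselves were not dosed after weaning, so every value describes young adults some time after the exposure ended. The 15 female libraries, 3 each of control, 2,4-BPS, BPSIP, BPS and E2 (oestradiol), were fitted together, and 1 pair of compounds was compared, at matched dose, route and age. The labels give neither the hour of collection nor the feeding state, and liver RNA follows both.

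The liver makes cholesterol, burns fatty acids, releases glucose between meals, clears foreign compounds and hormones, and secretes most plasma proteins. Insulin, fatty acid supply through PPAR alpha, sterol level through SREBP2 and the clock set many of these genes, and the pulse of growth hormone gives mouse liver a male and a female pattern. Kupffer cells, lymphocytes and endothelium share the tissue with the hepatocytes, and interferon gamma from T and NK cells acts on all of them.

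The 6 libraries held between 33360839 and 37719069 counts, and 13874 of 17990 genes passed the filter on low counts. Values are CPM, the counts of a gene relative to its library's total after TMM scaling, unless they are named as FPKM. Log2 values between libraries correlated at 0.9927 to 0.9942 within a group and at 0.9677 to 0.9715 between the groups, as a description over genes. Transcripts of the Y chromosome summed to 0.0264 to 0.555 CPM in these 6 libraries and to 148 to 172 CPM in the male BPSIP and BPS libraries. All 11 hepatocyte markers were present, at 126017 to 141852 CPM summed in BPSIP and 138547 to 154851 CPM in BPS (exact permutation test, two-sided, p = 0.2, where 0.1 is the smallest that 3 against 3 can give). Of these 11 markers, 5 were lower in BPSIP and none higher. Pancreatic acinar markers were at 0 in all 6 libraries for 9 of 12 genes.

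At an adjusted p under 0.05 (edgeR quasi-likelihood test, Benjamini-Hochberg over all genes), 2664 genes were higher in BPSIP livers, 19.2% of those tested, and 2791 were lower, 20.1%. These shares are the background for each count of list members below. The 3 and 3 libraries did not overlap for 6898 genes, 49.7%. Most differences were small: the median size was 0.48 on the log2 scale among the called genes, and 698 of the higher and 301 of the lower genes passed 1 log2 unit. The median of all genes tested was -0.004. The p-values measure the spread between libraries of the same group, pooled over all female libraries of the fit. This spread was small: over 7731 genes of at least 10 CPM, the median SD was 5.62% of the mean in BPSIP and 5.42% in BPS. A difference shared by all libraries of a group, such as the hour of collection or genotype, would not enter this spread and was not tested. Whether the spread is as wide as that between unrelated outbred mice was not tested either.

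The largest rises by the naming rule included genes of activated macrophages and other immune cells. Clec4e, a receptor for damaged cells and mycobacteria, stood at 7.42, 8.7 and 6.9 CPM in BPSIP and at 0.166, 0.0625 and 0 CPM in BPS. Chil1, a chitinase-like protein, stood at 31.9, 38.1 and 31.9 against 1.94, 0.906 and 0.473 CPM, and rose by 4.90 ± 0.41. Gpnmb, a glycoprotein of lipid-laden macrophages, stood at 8.15, 8.48 and 6.52 against 0.166, 0.344 and 0.378 CPM, and rose by 4.71 ± 0.44. All of these were near absent in BPS livers and in the controls, whose means were 0.268, 1.34 and 0.502 CPM. Lyz1, a lysozyme close to Lyz2 in sequence and so uncertain, rose by 4.92 ± 0.72, and Ppbp, a chemokine of platelets, by 4.37 ± 0.31. Among the largest falls, Zbtb16, a transcription factor, stood at 2.86, 5.02 and 4.71 CPM against 51.3, 57.4 and 56.1 and fell by 3.72. Crym, which binds thyroid hormone, fell by 3.19, and Krt23, a keratin, by 3.25.

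**Figure D1:**
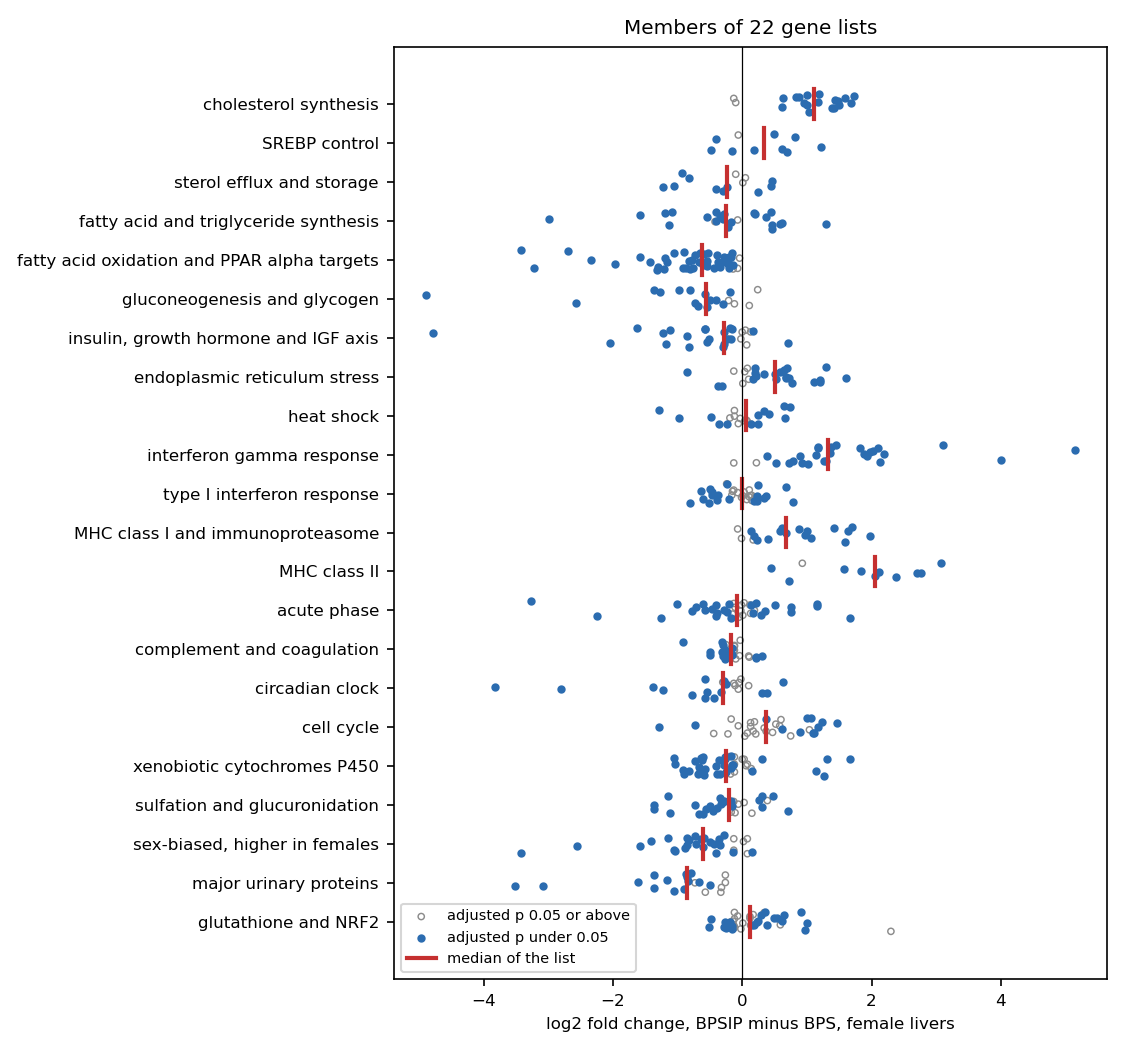
Log2 fold change of BPSIP minus BPS in female livers (x axis) for the members of 22 gene lists (y axis); filled points passed an adjusted p under 0.05, open points did not, and the bar is the median of the list. Cholesterol synthesis, interferon gamma response and MHC class II lie right of 0, and fatty acid oxidation and major urinary proteins lie left of it.

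Cholesterol synthesis stood higher in BPSIP livers. Of the 20 enzymes from acetyl-CoA to cholesterol, 18 rose, none fell, and the median was 1.11. Against that, 19.2% of all genes tested rose. The 2 that did not pass the test were Tm7sf2, with -0.13 (95% interval -0.25 to -0.01), and Ebp, with -0.10 (-0.22 to 0.02). The largest rise of the list was that of Mvd, 1.73, which makes isopentenyl pyrophosphate.

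Hmgcs1, the cytosolic HMG-CoA synthase at the head of the pathway, stood at 822, 868 and 854 CPM in BPSIP and at 304, 327 and 321 CPM in BPS, a difference of 1.42 ± 0.05 (log2, SE; edgeR adjusted p = 3.64e-22). The 2 groups of libraries lay far apart. Sqle, squalene epoxidase, had 179, 197 and 195 CPM against 64.7, 74.4 and 64.6 (1.49 ± 0.07), and Fdps, farnesyl diphosphate synthase, 352, 337 and 343 against 124, 122 and 124 (1.48 ± 0.05). Lss and Cyp51, which close and trim the sterol rings, differed by 1.69 ± 0.07 and 1.39 ± 0.06. Per length, the mean level of Hmgcs1 was 224 ± 3.84 FPKM in BPSIP and 76.1 ± 0.891 in BPS, and that of Fdps 251 ± 10.7 and 81.7 ± 2.62 (SD, n = 3 each).

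Beside the controls, both compounds gave medians above 0. Against the 3 control libraries, which both comparisons share, the median of the list was 1.84 for BPSIP and 0.49 for BPS. For Hmgcs1, with a control mean of 131 CPM, the values were 2.70 and 1.28, and for Sqle, with a control mean of 26.5 CPM, they were 2.85 and 1.36.

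The sterol sensing machinery differed in parts. Insig1, which holds the SREBP precursor in the endoplasmic reticulum and is itself a target, rose by 1.22 ± 0.06 (419, 431 and 431 against 170, 193 and 185 CPM). Srebf2, the transcription factor of sterol synthesis, rose by 0.69 ± 0.06, and Srebf1, that of fatty acid synthesis, by 0.62 ± 0.05. Insig2 and Scap, the other retention protein and the escort, fell by 0.48 and by 0.40.

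Sterol export went the other way. Of 13 genes of sterol efflux and storage, 7 fell and 3 rose, where 20.1% and 19.2% of all genes did. Abcg8 and Abcg5, which together pump sterols into bile, fell by 1.06 and by 0.82: Abcg8 stood at 43.8, 43.6 and 43 CPM in BPSIP and 92.3, 91.7 and 87.7 in BPS. Npc1, the lysosomal cholesterol exporter, fell by 1.22, and Soat2, which esterifies cholesterol, by 0.93. Nr1h3, the liver X receptor that drives Abcg5 and Abcg8, rose by 0.46 ± 0.06 and Abcg1 by 0.45 ± 0.11.

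The cholesterol synthesis list was searched for a sterol response element because most of its called members lie on 1 side. Hmgcs1 was the 1 member in whose window the motif was found, and the sequence before its start is shown. It is the 200 bases before the RefSeq start on GRCm38.p6, chr13:119690151-119690350, plus strand, 5′ to 3′, with the match to TCACNCCAC (TCACCCCAC) and the CCAAT boxes (ATTGG on this strand) in capitals.
Hmgcs1: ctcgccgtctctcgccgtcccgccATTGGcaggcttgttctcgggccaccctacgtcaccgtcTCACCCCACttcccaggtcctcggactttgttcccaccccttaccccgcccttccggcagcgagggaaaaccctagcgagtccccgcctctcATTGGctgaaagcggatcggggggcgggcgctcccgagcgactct
The sterol motif was searched on both strands. It lay in 1 of the 15 members with a window, which is 5.56% of their 18 windows, and in 0.858% of all 32851 windows of that length. CCAAT was in the windows of 14 of those 15 members, which is 77.8% of their 18 windows, and in 29.3% of all windows. A match here is a description of letters.

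**Figure D2:**
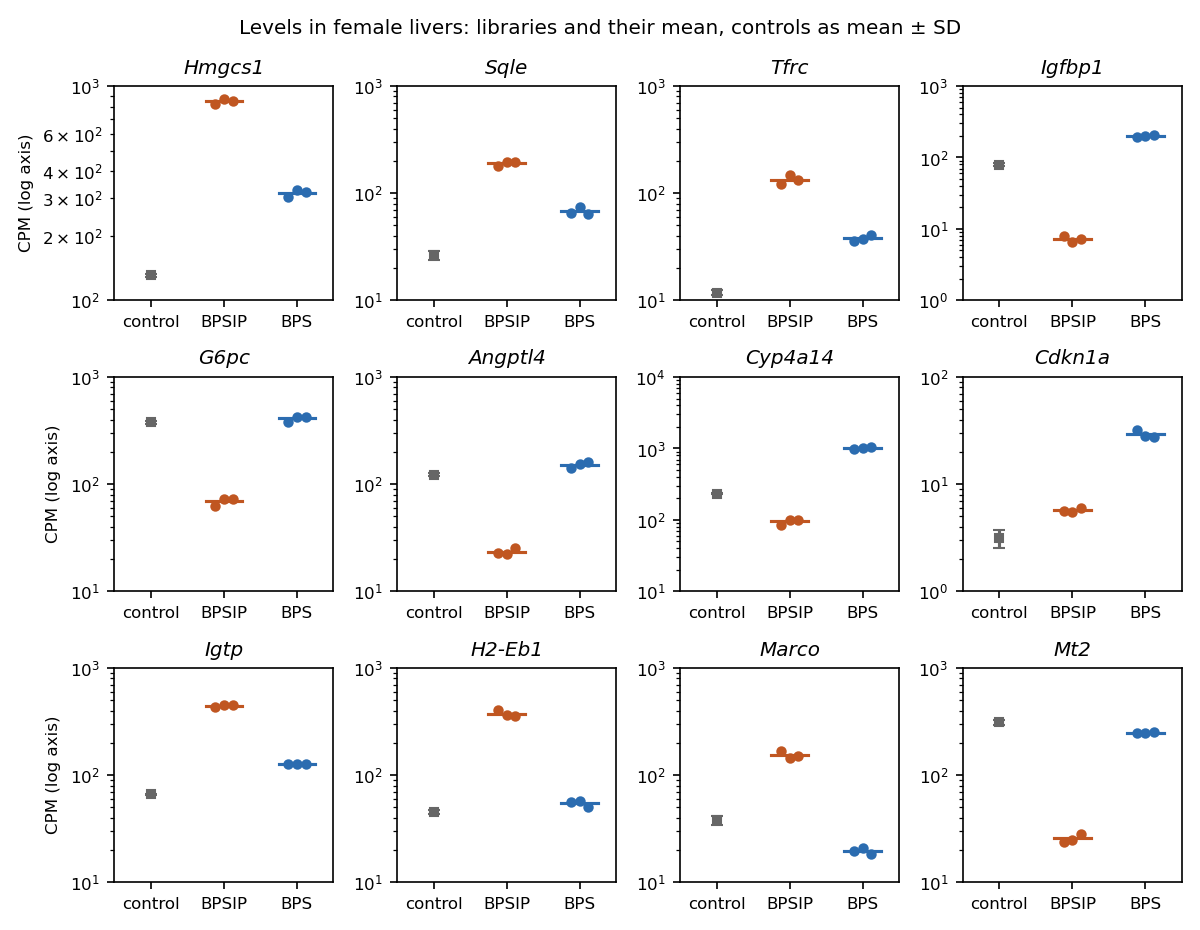
Level in CPM (y axis, log scale) of 12 genes in female livers: points are the 3 libraries of BPSIP and of BPS with their mean as a bar, and squares are the mean ± SD of the 3 controls. The BPSIP and BPS libraries do not overlap for any of the 12, which is so for 49.7% of all genes and which the naming rule required of some of the 12. In BPSIP against BPS, Igfbp1 stood at 6.56 to 7.98 against 196 to 203 CPM, and Hmgcs1 at 822 to 868 against 304 to 327 CPM.

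Igfbp1 was lower in BPSIP and Igfbp2, a sister binding protein, was higher. Igfbp1, which binds IGF1 and which insulin represses, stood at 7.98, 6.56 and 7.24 CPM in BPSIP and at 196, 201 and 203 CPM in BPS, a difference of -4.78 ± 0.07 (edgeR adjusted p = 7.39e-34). It was among the largest falls by the naming rule, and the control mean lay between the groups, at 79.2 CPM. Against control the values were -3.45 for BPSIP and 1.34 for BPS. Per length, Igfbp1 stood at 5.09 ± 0.592 FPKM in BPSIP and at 127 ± 1.66 FPKM in BPS, and Igfbp2 at 233 ± 2.47 and 129 ± 2.19 FPKM. Igfbp2 rose, by 0.71 ± 0.06.

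G6pc, the last step of glucose release, stood at 62.2, 73.2 and 72.1 CPM in BPSIP and 384, 427 and 423 CPM in BPS, and fell by 2.57. Pck1, which opens gluconeogenesis, stood at 1155, 1174 and 1192 against 2935, 3120.1 and 3075 CPM and fell by 1.37. Against control, the log2 values of these genes were 0.13 and 0.14 for BPS and -2.45 and -1.24 for BPSIP. Of 18 genes of gluconeogenesis and glycogen, 14 fell, none rose, and the median was -0.56. Ppp1r3g, which targets a phosphatase to glycogen, stood at 0.388, 0.291 and 0.194 CPM against 9.13, 9.59 and 7.85, the largest fall by the naming rule at -4.89 ± 0.24. Gys2, the liver glycogen synthase, fell by 0.97, so enzymes of glycogen storage and of glucose release were lower together.

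Of 27 genes of the insulin, growth hormone and IGF axis, 19 fell and 2 rose. All but 1 of the 7 receptors fell. Irs2, an insulin receptor substrate, stood at 8.83, 7.4 and 9.62 CPM against 35.2, 33.3 and 37.5, and fell by 2.04. Socs2, a growth hormone target that restrains its receptor, fell by 1.62, and Egfr by 1.18. The count of those that rose came to 1 without BPSIP library 1 or 3, or without BPS library 1 or 3.

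The upstream sequences of Igfbp1 and G6pc are shown because both are known to be repressed by insulin and both were named by the rule. Both are 200 bases before the RefSeq start on GRCm38.p6, 5′ to 3′: chr11:7197587-7197786, plus strand, for Igfbp1, and chr11:101367516-101367715, plus strand, for G6pc. Capitals mark the insulin response core CAAAACA, which reads in reverse as TGTTTTG, and, in G6pc, the D-box TTACGTAA.
Igfbp1: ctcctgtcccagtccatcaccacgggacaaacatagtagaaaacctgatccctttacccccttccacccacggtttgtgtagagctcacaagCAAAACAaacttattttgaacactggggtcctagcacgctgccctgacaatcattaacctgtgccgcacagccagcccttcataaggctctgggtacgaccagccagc
G6pc: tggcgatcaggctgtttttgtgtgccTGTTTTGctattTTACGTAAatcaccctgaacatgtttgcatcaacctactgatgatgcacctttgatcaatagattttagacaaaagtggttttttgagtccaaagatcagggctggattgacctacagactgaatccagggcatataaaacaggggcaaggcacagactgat
The insulin response core, searched on both strands and added after the values were seen, lay in 4.25% of all windows, and the D-box, searched as TTATGTAA or TTACGTAA, in 0.782%.

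Fatty acid oxidation was lower in BPSIP livers almost throughout. Of 46 PPAR alpha targets and oxidation genes, 43 fell, none rose, and the median was -0.62. Eci1, Bdh1 and Ech1 did not pass the test. The median was -0.16 over 3 ketogenesis genes, of which 2 fell, -0.22 over 11 genes of mitochondrial oxidation, of which 10 fell, and -1.58 over 9 thioesterases and other targets, all of which fell.

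Cyp4a14, a fatty acid omega-hydroxylase, stood at 85.6, 100.2 and 101 CPM in BPSIP and at 999, 1009 and 1061 CPM in BPS, and fell by 3.42. Angptl4, which inhibits lipoprotein lipase, stood at 22.8, 22.1 and 25.3 against 141, 156 and 161 CPM, and fell by 2.70. For both genes the 3 BPSIP libraries lay below the 3 BPS libraries; 49.7% of all genes had no overlap either way, and Cyp4a14 was named by a rule that required it. Acot1 and Acot3, which release free fatty acids from CoA, fell by 2.34 and by 1.58, and Cyp4a14 shares sequence with Cyp4a relatives, so its own value is uncertain. The control mean of Cyp4a14 was 234 CPM, between the groups, and that of Angptl4 was 123 CPM, near BPS.

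Ppara, Cpt1a and Pdk4 are named for their roles with their values seen, so their direction adds nothing to the counts of the list. Ppara itself, the receptor, stood at 198, 219 and 218 CPM against 339.8, 369 and 381 and fell by 0.78. Cpt1a, the gate of mitochondrial oxidation, stood at 343, 351 and 365 against 691, 751 and 765 CPM and fell by 1.06. Against control, Cpt1a stood at 0.00 for BPS and at -1.06 for BPSIP. Pdk4, which turns off glucose oxidation, fell by 1.97. Fgf21, a hormone of the fasted liver, stood at 0.776, 0.608 and 0.693 against 5.6, 6.25 and 7.59 CPM and fell by 3.22, among the largest falls by the naming rule.

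Fat synthesis was mixed. Of 24 genes, 13 fell and 9 rose, with a median of -0.25. Fasn, fatty acid synthase, and Acly, which supplies its acetyl-CoA, rose by 0.59 ± 0.06 and 0.46 ± 0.05, while Scd1, the desaturase, stood at 626, 726 and 717 CPM against 1896, 2196 and 2107 and fell by 1.58. Thrsp, a carbohydrate-induced regulator, fell by 1.20 and Acacb, which makes malonyl-CoA at mitochondria, by 1.09. Lpin1, a phosphatidate phosphatase, fell by 2.98, from 481, 551 and 549 CPM in BPS to 63.1, 68.3 and 68.8 in BPSIP. Around lipoproteins, Lpl, lipoprotein lipase, rose by 1.51 ± 0.09 (39.9, 38.4 and 39.4 against 11.7, 14.5 and 15.1 CPM), and Angptl8, its feeding-induced inhibitor, by 1.37 ± 0.09. Plin2, the lipid droplet coat, fell by 1.31.

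**Figure D3:**
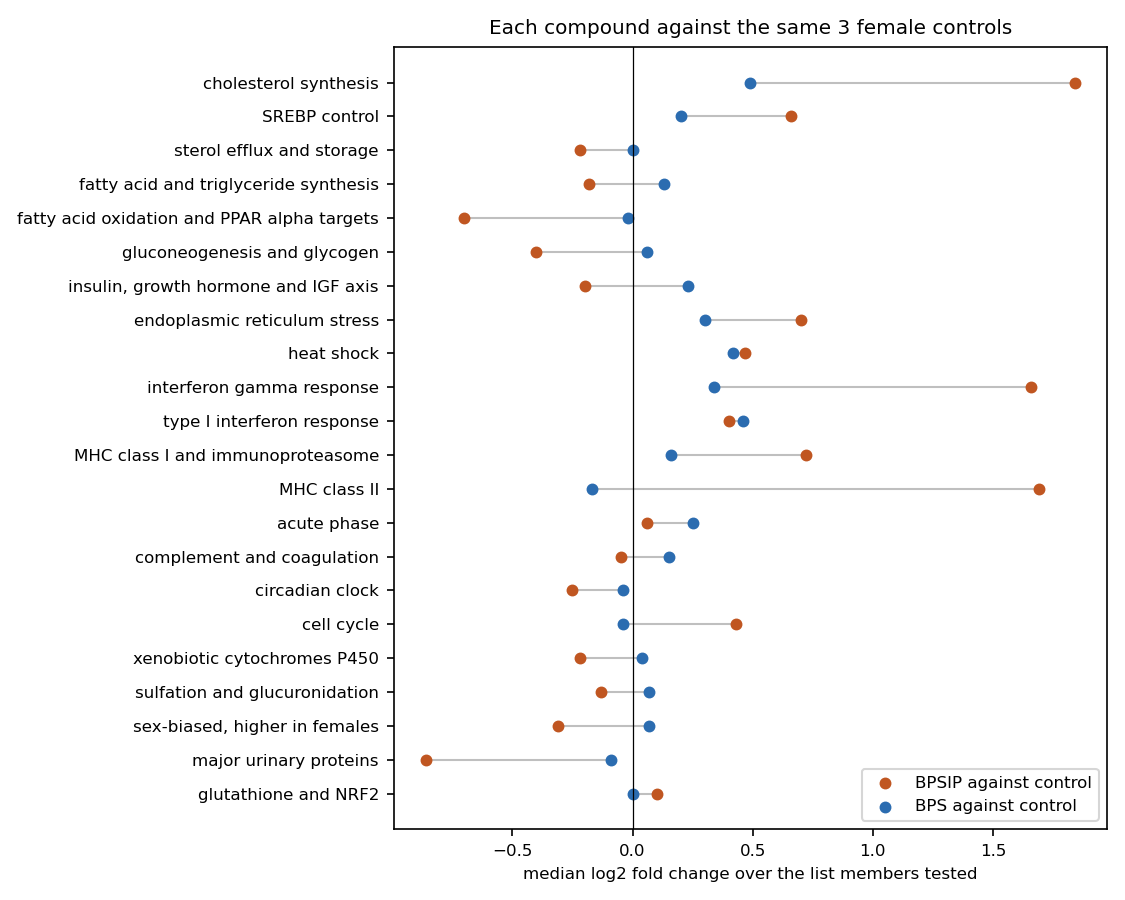
Median log2 fold change over the tested members of 22 lists (x axis; lists on the y axis) for BPSIP and for BPS, each against the same 3 female controls. The BPSIP medians of cholesterol synthesis and interferon gamma response, 1.84 and 1.66, lie beyond those of BPS, 0.49 and 0.34.

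Interferon gamma response genes were higher in BPSIP livers. Of 28 tested, 26 rose, none fell, and the median was 1.33; Ifngr2, 1 chain of the receptor, and Jak2, its kinase, did not pass the test. Igtp, an immunity-related GTPase, stood at 431, 447 and 456 CPM against 126 in each BPS library, and rose by 1.82 ± 0.06. Tgtp1, of the same family, stood at 142, 148 and 152 against 16.5, 18.4 and 16.4 CPM and rose by 3.11 ± 0.07, and Tgtp2, a near copy, by 2.10 ± 0.07, so the value of each is uncertain. Irgm2, also of this family, stood at 271, 290.3 and 276 CPM against 98.8, 103 and 106 and rose by 1.45 ± 0.06. It was named for its upstream motifs after its values were seen. Per length, Igtp stood at 234 ± 1.27 FPKM and Tgtp1 at 55.9 ± 0.611 FPKM in BPSIP, and at 60.2 ± 1.84 and 5.88 ± 0.348 FPKM in BPS.

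Effectors of killing and recruitment were among them. Ubd, a ubiquitin-like modifier, stood at 13, 9.46 and 10.7 CPM against 0.86, 0.687 and 0.504 and rose by 4.00 ± 0.28. Nos2, the inducible nitric oxide synthase of macrophages, stood at 3.32, 4.73 and 4.96 against 0.166, 0.0312 and 0.158 CPM and rose by 5.14 ± 0.62. Cxcl9, a T cell chemokine named for its role with its values seen, stood at 206, 203 and 199.9 against 52.3, 38.9 and 42.5 CPM and rose by 2.19 ± 0.08. Ifng itself was near absent, at 0.509, 0.423 and 0.0555 CPM against 0.0277, 0 and 0.221, and did not pass the test (edgeR adjusted p = 0.138).

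Type I interferon genes did not follow. Of 34 tested, 8 rose and 11 fell, where 19.2% and 20.1% of all genes did, and the median was 0.00. The count of those that rose was 5 without BPSIP library 3, BPS library 2 or BPS library 3, and the count of those that fell was 7 without BPS library 1. Irf7, their master regulator, fell by 0.46 and Usp18, which damps the receptor, by 0.60, while Zbp1, a nucleic acid sensor, rose by 0.67 ± 0.09. Against control, the list had medians of 0.40 for BPSIP and 0.46 for BPS.

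Antigen presentation was higher as well. In MHC class II, 10 of 11 genes rose, with a median of 2.05. H2-Eb1 stood at 407, 361 and 354 CPM against 56.5, 57.6 and 50.2 and rose by 2.77 ± 0.09, H2-Aa at 253, 233 and 227 against 57, 56.8 and 49.8 (2.12 ± 0.06), and Cd74, the invariant chain that guides class II, at 1108, 1012 and 1027 against 263, 259.7 and 235 (2.05 ± 0.06). H2-Ob did not pass. Ciita, the class II transactivator, named for that role with its values seen, rose by 2.70 ± 0.15. In MHC class I and the immunoproteasome, 16 of 19 rose, with a median of 0.67: H2-T23 rose by 1.64 ± 0.06 and Tap1, the peptide transporter, by 1.42 ± 0.08. H2 genes are near-identical in part, so single values are uncertain. Against control, the class II median was -0.17 for BPS and 1.69 for BPSIP.

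The 200 bases before the starts of Igtp, Irgm2 and Tgtp1, with the class II genes H2-Aa and H2-Eb1, are shown because the first 3 hold the same pair of motifs. Coordinates are GRCm38.p6, RefSeq starts, 5′ to 3′: Igtp chr11:58199356-58199555 plus, Irgm2 chr11:58214777-58214976 plus, Tgtp1 chr11:48992247-48992446 minus, H2-Aa chr17:34287824-34288023 minus, H2-Eb1 chr17:34305667-34305866 plus. Capitals mark TTCNNNGAA (gamma-activated site) and GAAANNGAA (interferon-stimulated core) in the first 3, and the CCAAT box, in either direction, in the last pair.
Igtp: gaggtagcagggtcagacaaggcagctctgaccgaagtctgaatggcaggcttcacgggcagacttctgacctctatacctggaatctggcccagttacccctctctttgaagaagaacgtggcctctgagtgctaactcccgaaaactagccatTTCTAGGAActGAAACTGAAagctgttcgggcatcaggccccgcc
Irgm2: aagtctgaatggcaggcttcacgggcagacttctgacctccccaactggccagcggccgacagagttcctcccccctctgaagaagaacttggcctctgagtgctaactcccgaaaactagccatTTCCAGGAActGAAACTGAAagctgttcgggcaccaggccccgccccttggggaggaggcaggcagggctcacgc
Tgtp1: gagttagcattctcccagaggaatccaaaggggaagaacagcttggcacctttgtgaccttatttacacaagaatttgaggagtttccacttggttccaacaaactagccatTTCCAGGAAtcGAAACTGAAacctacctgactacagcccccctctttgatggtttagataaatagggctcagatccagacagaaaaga
H2-Aa: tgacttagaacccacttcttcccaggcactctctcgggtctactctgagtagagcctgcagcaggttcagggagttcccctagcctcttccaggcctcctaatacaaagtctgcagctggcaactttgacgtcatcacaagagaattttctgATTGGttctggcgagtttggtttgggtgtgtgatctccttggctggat
H2-Eb1: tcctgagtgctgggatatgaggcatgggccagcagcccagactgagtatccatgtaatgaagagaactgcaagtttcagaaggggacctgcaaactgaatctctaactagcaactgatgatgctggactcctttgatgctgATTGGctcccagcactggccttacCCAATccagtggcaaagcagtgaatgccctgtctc
Motifs were searched on both strands. Of the 20 interferon gamma members with a window, 8 held the gamma-activated site and 12 the interferon-stimulated core. Of their 23 windows, 34.8% and 52.2% did. Over all windows of that length the shares were 5.49% and 5.57%. Of 8 class II members with a window, 7 held CCAAT, which is 77.8% of their 9 windows, where 29.3% of all windows did.

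Markers of immune cells moved with these groups, and their part in them was not tested. In a bulk liver, fewer cells of a type and less RNA per cell cannot be told apart. The summed macrophage and Kupffer cell markers ran from 2789 to 3118 CPM in BPSIP and from 1592 to 1691 CPM in BPS, with 17 of 19 markers higher and none lower. Marco, a scavenger receptor, stood at 169, 145 and 151 CPM against 19.5, 21 and 18.5 and rose by 2.98 ± 0.08, while Vsig4 and Folr2 did not pass the test, at 0.14 (95% interval 0.00 to 0.28) and 0.07 (-0.11 to 0.25). Clec4f, a resident Kupffer cell marker named with its values seen, rose by 0.17 ± 0.06. T and NK cell markers ran from 64.0 to 70.1 against 30.4 to 34.8 CPM, B and plasma cell markers from 32.8 to 37.0 against 5.83 to 8.41, neutrophil markers from 64.7 to 83.3 against 20.2 to 22.9, and dendritic cell markers from 19.0 to 20.5 against 8.16 to 11.9. Each of these 5 sums had an exact permutation p of 0.1, the smallest that 3 against 3 can give. That p was not particular to immune cells. Sinusoidal endothelium, stellate cells, cholangiocytes and adipocytes had it too, at BPSIP over BPS ratios of 0.824, 0.967, 1.22 and 0.683. Of 20 T and NK markers, 10 were higher and none lower, and 6 were higher without BPS library 2. The control means of all 5 sums lay between those of the 2 exposed groups, at 1727, 35.0, 17.9, 47.0 and 11.9 CPM. Sinusoidal endothelium went the other way, at 688 to 731 against 826 to 874 CPM, with 9 of 15 markers lower and none higher. No marker of these 5 lists that the table holds was at 0 in all 6 libraries.

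**Figure D4:**
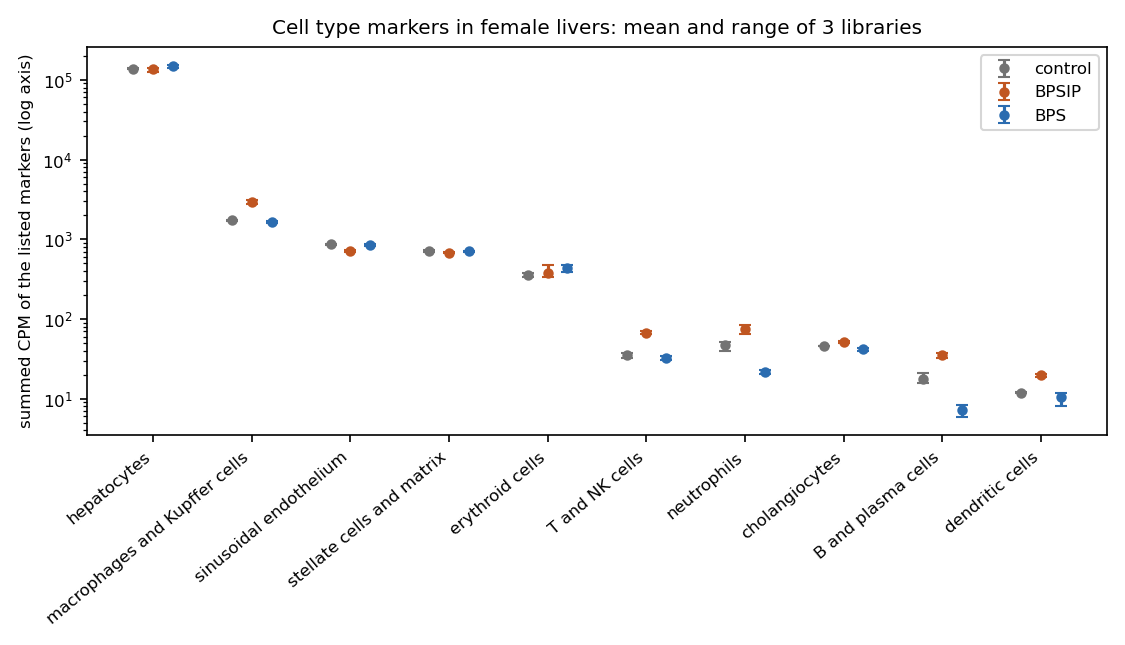
Summed CPM of the markers of 10 cell types (y axis, log scale) in control, BPSIP and BPS female livers, as the mean and the range of 3 libraries. Macrophage, T and NK, B, neutrophil and dendritic sums are higher in BPSIP than in BPS in every library.

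Chaperones of the endoplasmic reticulum were higher in BPSIP. Of 27 stress genes, 19 rose and 3 fell, and of the 14 chaperones and disulfide isomerases 13 rose and 1, Dnajb9, fell by 0.37. Hspa5, the main chaperone BiP, stood at 1196, 1353 and 1368 CPM against 709.8, 773 and 814 and rose by 0.77 ± 0.06. Hyou1, its exchange factor, rose by 1.29 ± 0.06 (304, 329 and 340.1 against 125, 137 and 134 CPM), Creld2, a secretory chaperone, by 1.20 ± 0.08 and Manf, which leaves stressed cells, by 1.11 ± 0.05. Of the 8 genes of degradation, 4 rose, 1 fell and 3 did not pass the test, with a median of 0.15. The 1 that fell was Herpud1, which helps to clear misfolded protein: it stood at 301, 290.3 and 315 CPM against 511, 558 and 561 and fell by 0.85. Both compounds stood above control for the list, with medians of 0.70 and 0.30.

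The ATF4 list split, with 7 genes higher and 8 lower of 26, where 19.2% and 20.1% of all genes tested were. The count of those higher was 4 without BPSIP library 3. Aars, an alanyl-tRNA synthetase, rose by 0.83 ± 0.05, and Chac1, a glutathione-degrading target, stood at 0.606, 0.687 and 0.97 CPM against 4.88, 4.9 and 3.91 and fell by 2.60. Among 22 heat shock genes, 8 were higher and 5 lower, beside the same shares of all genes. Hsp90aa1, the inducible HSP90, rose by 0.74 ± 0.06, while Hspa1b, an inducible HSP70, fell by 0.97, and its near copy Hspa1a by 1.28, with uncertain single values. Relative to control both were higher in both groups, at 1.40 and 2.37 for Hspa1b.

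The acute phase list split as well, with 11 higher and 16 lower of 38, where 19.2% and 20.1% of all genes were. Lcn2, which binds bacterial iron carriers, stood at 175, 177 and 182 CPM against 76, 79.5 and 83.3 and rose by 1.16 ± 0.06, and Saa1, a serum amyloid with near copies, by 0.75 ± 0.07. Crp and Orm1 did not pass the test, at -0.02 (95% interval -0.14 to 0.10) and 0.03 (-0.07 to 0.13). The receptor Il1r1 fell by 1.26. Of 29 complement and coagulation genes, 16 fell and 3 rose, with C9, the pore of the membrane attack complex, lower by 0.91 (218, 244 and 239 against 405, 446 and 466 CPM). The count of those that rose was 5 without BPSIP library 1.

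Of 21 genes of iron and metal handling, 5 rose and 8 fell, where 19.2% and 20.1% of all genes did. The median was -0.11. Mt2 stood at 23.9, 24.7 and 28.3 CPM in BPSIP against 247, 245 and 250.5 in BPS and fell by 3.27, and Mt1, its neighbour, at 70.6, 61.6 and 64.2 against 328, 306 and 293 and fell by 2.24. Both are metallothioneins, which hold zinc and copper. Against control, Mt2 and Mt1 stood at -0.33 and -0.17 for BPS and at -3.60 and -2.41 for BPSIP. Per length, Mt2 stood at 49.1 ± 3.44 FPKM and Mt1 at 66.8 ± 6.16 FPKM in BPSIP, and at 431 ± 13.3 and 286 ± 24.6 FPKM in BPS, so Mt1 was the higher of the pair in BPSIP and Mt2 in BPS. Of the 11 genes of uptake, storage, export and binding, 2 rose and 4 fell, with a median of -0.03. The 2 that rose were Tfrc and Slc11a2. Tfrc, the transferrin receptor, stood at 121, 149 and 133 against 36, 37.2 and 41 CPM and rose by 1.82 ± 0.08, and Slc11a2, an iron transporter, by 0.74 ± 0.10. Slc39a14, a zinc and iron importer, fell by 0.72.

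The 200 bases before Mt2 on GRCm38.p6, chr8:94172418-94172617, plus strand, 5′ to 3′, are shown for its size of change, with the metal response core, searched as TGCACNC or TGCGCNC on both strands and added after values were seen, in capitals.
Mt2: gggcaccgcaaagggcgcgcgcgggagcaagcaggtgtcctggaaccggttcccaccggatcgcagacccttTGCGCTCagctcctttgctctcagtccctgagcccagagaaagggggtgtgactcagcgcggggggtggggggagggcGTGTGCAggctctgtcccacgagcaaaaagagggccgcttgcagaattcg
Matches at 2 places lie in it, and 18.2% of all windows hold at least 1.

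Clock genes were lower in part. Of 22, 12 fell and 3 rose, with a median of -0.29. Rgs16, a clock-driven regulator of G protein signals, stood at 6.36, 6.16 and 6.1 CPM against 80.6, 95.7 and 87.7 and fell by 3.82. Nr1d1, the repressor REV-ERB alpha, fell by 0.78 (25.4, 23.5 and 24.4 against 39.7, 46.9 and 39.4 CPM), Ciart by 1.38 and Arntl, the activator BMAL1, by 0.57, while Per2 rose by 0.63 ± 0.10. Npas2, a partner of BMAL1 named with its values seen, stood at 0.412, 0.291 and 0.25 against 2.14, 1.97 and 2.65 CPM. Clock and Cry1 did not pass, at -0.06 (95% interval -0.28 to 0.16) and -0.02 (-0.26 to 0.22). The hour of collection was not given and its part in these values was not tested. Of 24 immediate early genes 9 fell and 3 rose, among them Klf10, lower by 1.73, and Dusp1, a feedback phosphatase, by 0.89.

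Enzymes that clear foreign compounds were mostly lower. Of 42 cytochromes P450 and their receptors, 26 fell and 6 rose. Por, the reductase that feeds them electrons, stood at 365, 382 and 408 CPM against 741, 816 and 827 and fell by 1.05, and Cyp2a4, a steroid hydroxylase, by 1.04. Cyp3a11, the main inducible form of the 3A family, went up, at 1256, 1426 and 1419 CPM against 514, 573 and 617, by 1.27 ± 0.06. Cyp1a1, an AHR target named with its values seen, rose by 1.67 ± 0.27 from 1.33, 1.31 and 1.07 CPM in BPS to 4.08, 4.55 and 3.22. Cyp2b10, a CAR target, did not pass, at 0.06 (95% interval -0.14 to 0.26), nor did Cyp1a2, at -0.12 (-0.22 to -0.02); without BPS library 1, Cyp1a2 passed (edgeR adjusted p = 0.0266). P450 genes of 1 subfamily share much sequence, so single values are uncertain. Of 33 sulfation and glucuronidation genes, 18 fell and 5 rose, with Sult3a2 lower by 1.36.

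Of 6 oestrogen, androgen, glucocorticoid and thyroid receptor genes tested, 1 fell and none rose, where 20.1% and 19.2% of all genes did. With 6 genes, this count does not set the receptors apart from other genes. Esr1, oestrogen receptor alpha, stood at 32.5, 35.5 and 32.7 CPM in BPSIP and 36, 35.9 and 36.3 in BPS, a difference of -0.10 (95% interval -0.35 to 0.15; edgeR adjusted p = 0.565). Both groups were higher than control, at 0.64 and 0.74. Nr3c1, the glucocorticoid receptor, differed by 0.03 (-0.11 to 0.17). Hnf4a, which holds hepatocyte identity, fell by 0.60, from 897, 947 and 944 CPM in BPS to 589.8, 614 and 631.

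Female-pattern genes were lower. Of 29, 23 fell and 1 rose, with a median of -0.61, and the 1 that rose, Cyp3a16, did so only in some fits (not without BPSIP library 2 or 3, or BPS library 1 or 2). Cyp4a14 and Acot3 are also on the fatty acid oxidation list, so their falls count in both. Mean Cyp4a14 was 1373 and 1291 CPM in male BPSIP and BPS livers, above the female means of 95.5 and 1023 CPM. Cyp17a1, a steroid hydroxylase and lyase, stood at 9.29, 11.7 and 10.7 against 56.6, 58 and 70.1 CPM and fell by 2.55. Major urinary proteins, pheromone carriers with near-identical copies, fell in 14 of 20 and rose in none; Mup3 stood at 1826, 1827 and 1859 against 3234, 3436 and 3391 CPM and fell by 0.87. Without BPS library 3, 1 of them rose. Of 19 male-pattern genes, 5 rose and 5 fell, where 19.2% and 20.1% of all genes did. Bile acid enzymes were lower in 9 of 14 and higher in 1, where 20.1% and 19.2% of all genes were. Cyp8b1, the 12-hydroxylase, was lower by 0.64 and Cyp7a1, the rate-limiting step, by 0.26, while Acox2 rose by 0.16 ± 0.05.

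Amino acid breakdown and the urea cycle were lower in the main. Of 24 genes, 17 fell and 3 rose, with a median of -0.27. Got1, an aspartate aminotransferase, stood at 235, 233 and 239 CPM against 445, 464 and 473 and fell by 0.97. Tat, which opens tyrosine breakdown, fell by 0.71 and Gls2, the liver glutaminase, by 0.63. Nags, which makes the activator of the urea cycle, went the other way and rose by 0.45 ± 0.06. In males 16 of these 24 genes fell and 1 rose, where 16.8% and 18.6% of all male genes tested did.

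Of 39 genes of glutathione and NRF2 defence, 14 rose and 8 fell, where 19.2% and 20.1% of all genes did. Srxn1, which repairs peroxiredoxins, stood at 61.8, 69.4 and 69.5 CPM against 35.3, 35.5 and 36 and rose by 0.91 ± 0.07. Hmox1, which breaks down haem, stood at 87.3, 74.3 and 70.3 against 41.8, 39.3 and 37.4 CPM and rose by 0.97 ± 0.08. Cat, catalase, fell by 0.48. Macrophages also express Hmox1, and the macrophage sums given above moved in the same direction; their part was not tested.

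Of 14 DNA replication genes, 9 rose and 2 fell, with a median of 0.75. Of 17 mitosis genes, 1 rose, Mki67, and none fell, with a median of 0.21, and the difference between these lists was not tested. Mcm5 and Mcm3, of the replication helicase, stood at 9.7, 8.22 and 9.76 against 3.47, 3 and 3.5 CPM and at 13.1, 11.4 and 11.6 against 5.52, 5.06 and 4.66, and rose by 1.47 ± 0.20 and 1.24 ± 0.14. Ccnd1, cyclin D1, rose by 1.10 ± 0.06. The 2 that fell were E2f8, a repressor of the E2F family, by 1.28, and Rrm2, a subunit of ribonucleotide reductase, by 0.73. Cdkn1a, the brake p21, stood at 5.58, 5.55 and 6.04 against 31.8, 28.3 and 27.5 CPM and fell by 2.35; the control mean was 3.16 CPM, so both groups were above it. Oxidative phosphorylation subunits fell in 60 of 76 and rose in none, with a median of -0.25. Of 82 ribosomal protein genes 3 rose and 9 fell, fewer than the 19.2% and 20.1% of all genes that did.

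A few genes were near absent in 1 group. Trim12a, a relative of the antiviral TRIM5, gave 766 counts over the 3 BPSIP libraries and 1 count over the 3 BPS libraries, a ratio of 731 (95% counting interval 131 to 28905). The control mean was 1.13 CPM, between the 2 groups. Gdpd3, a lysophospholipase, stood at 10.8, 9.44 and 10.1 CPM against 0.111, 0.0312 and 0.063 and rose by 7.11 ± 0.35. Cyp4a12b, a male-pattern hydroxylase, stood at 9.46, 9.57 and 9.18 against 0.166, 0.0312 and 0.0945 CPM, where the control mean was 15.3 CPM. Rpl21, a ribosomal protein with processed copies, fell by 3.81. Trim12a, Cyp4a12b and Rpl21 have near copies, so their single values are uncertain.

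The same pair of compounds was compared in male offspring of the same age. Of 13474 genes, 2502 were higher in BPSIP, 18.6%, and 2265 lower, 16.8%. Of 13327 genes tested in both sexes, 2526 were called in both, 47.2% of the female calls and 53.2% of the male ones, and 1857 of these were opposite in direction against 669 in the same. The female minus male difference passed for 5701 of 14131 genes, 40.3%, in a test of the difference itself. The male fit uses the libraries labelled male control only for the spread.

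Several of these lists lay on the other side of 0 in males. Cholesterol synthesis had 1 higher and 16 lower of 20, with a median of -0.64, where females had 18 higher. The difference was called for 19 of the 20. Hmgcs1 had a difference of -0.75 in males and 1.42 in females, a female minus male value of 2.20. Fatty acid oxidation had 37 higher and none lower of 46, with a median of 0.36, and the difference was called for 44. Interferon gamma genes had 3 higher and 9 lower of 28 in males, where 18.6% and 16.8% of all male genes tested were. Their male median was -0.15, and most of them were not called in males. The female minus male difference was called for 25. Chaperones of the endoplasmic reticulum had 1 higher and 11 lower of 14, and the difference was called for all 14.

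Igfbp1 had a male value of -0.15 (edgeR adjusted p = 0.0511) and a female minus male value of -4.60. G6pc fell in both sexes, by 0.50 in males, with a female minus male value of -2.04. Mt2 and Mt1 fell in both, by 0.47 and by 0.71 in males. Cyp3a11 rose in both, by 0.69 in males. Rpl21 fell in both, by 2.87 in males. MHC class II rose in 3 of 10 male genes and fell in 2, where 18.6% and 16.8% of all male genes tested did.

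**Figure D5:**
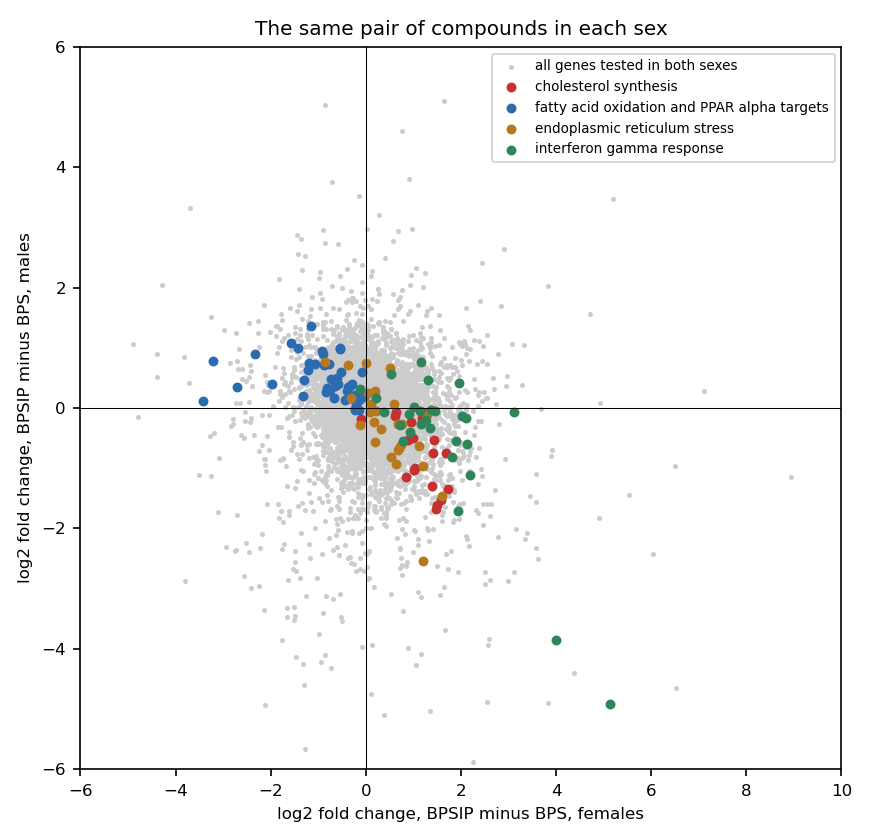
Log2 fold change of BPSIP minus BPS in females (x axis) and in males (y axis) for all genes tested in both sexes, with 4 lists in colour; 4 genes lie outside the axes. Cholesterol synthesis lies lower right, with medians of 1.11 and -0.64, and fatty acid oxidation upper left, with -0.62 and 0.36.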

How the data were processed

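Liver RNA of 30 mice was sequenced, and 6 female libraries are the members here. The authors deposited counts per gene and FPKM values; per the submitters' processing notes, HISAT2, HTSeq, R 3.2.0 and DESeq2 were used. For genome build and annotation: not given in the sources used here, so only symbols were matched. The deposited FPKM values were used only to describe levels per length. They were not TMM scaled here, so their ratios between groups differ from the fitted changes, and they were not tested. Counts were tested with edgeR 4.0.16 (R 4.3.3): filterByExpr by group, TMM, robust quasi-likelihood fit over the 15 female libraries, Benjamini-Hochberg adjustment, threshold 0.05. Males were fitted alone, and all 30 libraries together gave the female minus male test. Cell type sums were tested with an exact permutation test over 6 libraries (smallest p 0.1). Intervals of single genes are normal 95% intervals from the fitted SE; counting intervals cover counting error only. Promoter windows are from RefSeq, GRCm38.p6. DESeq2 1.42.0 gave an alternative; Python 3.11.15, pandas 2.3.3, scipy 1.17.1 and matplotlib 3.10.9 were used for tables and figures. The scripts were tested on simulated data.

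The 51 lists and the members were chosen with earlier results of these data known. Names come from a rule: the 12 largest changes each way with no overlap and at least 1 CPM, 4 members of smallest p in each list and 2 against its direction, a panel of known genes, and the 5 largest sex differences each way. Genes named for their role outside it were chosen after their values were seen, and so were the members named because they did not pass the test or lay at the end of a list. Replicates are separate offspring of different dams, per the labels. Some genes are not reported here by name, and they remain in the counts of their lists.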

Additional observations from a re-analysis of the deposited data

Results flagged for a closer look

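The female minus male test was passed by 5701 genes, as given above. The following 10 genes had the largest differences each way by the naming rule, and the values below are means of 3 libraries in CPM, scaled over all 30 libraries, so they differ slightly from the CPM of the 15 female libraries given above. Where a group is at or near 0, the fitted value depends on the prior count and is no bound.

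Clec4e, a macrophage receptor, had 7.52 in female BPSIP, 0.0742 in female BPS, 0.0209 in male BPSIP and 0.65 in male BPS, a difference of 11.23 on the log2 scale. Nos2 had a difference of 10.11, with 4.25 and 0.115 in females and 0.0219 and 0.79 in males. Trim12a had a difference of 10.09, with 1 count over the 3 female BPS libraries. Ppbp, a platelet chemokine, had 8.82, and Acod1, a macrophage enzyme, had 8.8; both fell in males.

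In the other direction, Cfap53 had -13.14, with 6.46 CPM in male BPSIP and 0 in male BPS, and its female values were 0.00863 and 0.0606. Mrap2 had -6.38, with 0 counts in female BPSIP and 62 in female BPS, at least 21.7-fold lower (a floor of 3 counts over the group). Ppp1r3g had -5.92: it fell in females and rose in males, with 0.285 and 8.6 against 7.17 and 3.48. Fos, an immediate early gene, had -5.85, with 33.2 in male BPSIP and 1.03 in male BPS, and its female call was lost without BPSIP library 2 or 3 (edgeR adjusted p = 0.0672 and 0.0638). Krt23 had -4.73, with 0.475 and 4.55 in females and 5.22 and 1.85 in males.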

How the results depend on the processing

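The count of genes higher and lower in BPSIP stayed within 1.5 times under RLE factors, no filter, DESeq2, the 6 libraries alone and all 30 libraries, at 2612 to 2902 higher and 2725 to 2793 lower. A minimum log2 fold change of 1 left 215 higher and 105 lower, 133 male and 673 female minus male. Leaving out each replicate in turn gave 2327 to 2427 higher, 2394 to 2539 lower, 4183 to 4396 in males and 5235 to 5513 for the sex difference. The labels give both groups replicates 1 to 3, but same-numbered libraries did not deviate together (correlations 0.032, 0.066 and -0.028), so the numbers were not taken to pair the libraries. With the replicate block, 2615 were higher and 2749 lower, 4763 differed in males, and 5659 differed between the sexes. Of 3246 values under alternatives, 3063 kept their direction and side of the threshold, 174 fell below it, 9 rose above it and none reversed. The depth is similar in all libraries; genes of a few counts are limited by counting error.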
